A study of Danio rerio with 16 samples.

Results

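The 42 genes described here are the division genes of the cell cycle, 20 that are used in S phase, when DNA is copied, and 22 that are used in mitosis, when the copies are separated. They were taken by symbol from a fixed list, and 41 of the 42 were found among the 24783 gene symbols of the deposited annotation. All 22 mitosis genes and 19 of the 20 S phase genes were present, and ung was not found under that symbol. Counts of identifiers that share a symbol (rrm2 and ube2c) were added up. Zebrafish of the Tg(mpx:Dendra2) line, in which the myeloperoxidase promoter drives a photoconvertible green-to-red protein at high level in neutrophils and at low level in macrophages, were photoconverted in the head at 34 and 44 hpf (hours post fertilization). Red cells were therefore enriched in RBI-derived cells (rostral blood island) and green cells in CHT-derived cells (caudal hematopoietic tissue). The caudal fin was transected at 54 hpf (cut) or left intact (normal), and whole embryos were dissociated and sorted by colour 3 h later. The 4 groups were thus normal and cut embryos, each with RBI-derived and with CHT-derived cells, all of the same line and age, with embryos pooled before sorting.

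Cells that enter S phase load the ring-shaped MCM helicase on DNA, make deoxynucleotides and copy each strand behind the sliding clamp PCNA. Cells that enter mitosis activate the kinase Cdk1 with cyclins A and B, condense their chromosomes and build a spindle, and the anaphase promoting complex then destroys the cyclins. Transcripts of the S phase group and of the mitosis group peak in turn, so that a dividing cell usually carries more of one group at a time. Neutrophil progenitors divide, while mature neutrophils have left the cell cycle, and tissue macrophages can divide in place.

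Each group was captured as 1 library of single cells with the 10x Genomics 3′ chemistry, in which unique molecular identifiers (UMIs) are counted per gene and cell. Its 4 entries share 1 matrix, so no replicate of a group could be told apart. Of 7599 cells kept, 4042 had at least 1% of their UMIs from lyz (lysozyme) and are called neutrophils. Another 1825 had less lyz and at least 3 UMIs of 6 macrophage genes and are called macrophages, and 1732 were other cells. All 10 neutrophil markers and 9 of 10 macrophage markers (all but cd74a) were higher in their own class in each of the 4 libraries. The normal libraries held 44 RBI-derived and 550 CHT-derived macrophages, and the cut libraries 230 and 1001. Neutrophils with at least 3 macrophage UMIs numbered 0, 6, 8 and 195 in the 4 libraries, ordered as normal and then cut for RBI-derived cells, followed by normal and cut for CHT-derived cells, and this order is kept wherever 4 values are given. Total UMIs were 8874272, 7409098, 17303744 and 15982680. Median UMIs per neutrophil were 4869, 3532.5, 8900 and 4105, so that depth differed with origin and with the cut.

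S phase and mitosis transcripts were highest in the other cells and low, at similar levels, in neutrophils and macrophages. In neutrophils the 19 S phase genes summed to 339, 301, 497 and 433 CPM (UMIs scaled to counts-per-million). In macrophages they summed to 522, 207, 524 and 308 CPM. In other cells the sums were 1716, 943, 2014 and 1501 CPM, between 3.13 and 5.06 times those of neutrophils of the same library. The other cells were thus above both myeloid classes in every library, whereas the order of neutrophils and macrophages changed from library to library. Macrophages had 1.54 times the neutrophil S phase level in RBI-derived normal (interval 1.301 to 1.809) but 0.69 times (0.59 to 0.80) in RBI-derived cut and 0.71 times (0.67 to 0.76) in CHT-derived cut. The other cells were a mixture of groups set by marker genes. They also held neutrophil transcripts, most of all in RBI-derived cut, with mmp13a at 459, 2581, 143 and 196 CPM and mmp9 at 314, 2538, 48.1 and 148 CPM. Whether neutrophils low in lyz were among the other cells, and their part in the contrasts with other cells, was not tested. Of the S phase UMIs of other cells, blood progenitor-like cells held 640 of 1147, 148 of 333, 4198 of 7081 and 2178 of 4085. The blood progenitor genes include hmga1a, which is described below as higher in myeloid cells with division transcripts. Whether it placed dividing cells in this group was not tested. Neuron-like cells among the other cells held 224, 109, 305 and 689 CPM of S phase genes, below the neutrophils except in CHT-derived cut. All intervals between libraries or classes are exact 95% intervals for counting error only, since PCR copies were removed by UMI but cells of 1 library are not replicates.

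The mitosis genes were also highest in other cells. Their sums were 332, 226, 433 and 383 CPM in neutrophils and 384, 253, 440 and 296 CPM in macrophages. The value of RBI-derived normal macrophages leaned on 1 cell, which held 62 of the 120 UMIs. In other cells the mitosis sums were 808, 827, 1175 and 1146 CPM, between 2.43 and 3.66 times the neutrophil level. The distance to neutrophils was larger than for S phase genes in RBI-derived cut (3.66 against 3.13 times) and smaller in the remaining libraries. The ratio of S phase to mitosis UMIs was 1.02, 1.33, 1.15 and 1.13 in neutrophils and 2.12, 1.14, 1.71 and 1.31 in other cells. The other cells thus leaned more to S phase genes than neutrophils in both normal libraries and in CHT-derived cut, but not in RBI-derived cut. RNA outside cells also held these transcripts. Droplets with 10 to 100 UMIs held 423, 376, 919 and 655 CPM of S phase genes, more than the neutrophils of the same library, and 259, 218, 597 and 549 CPM of mitosis genes. The part that this RNA played in the low levels of neutrophils and macrophages was estimated only by a subtraction based on lyz in neuron-like cells (1.88%, 3.00%, 1.95% and 4.68% of UMIs), and under it the sign of 1 summed ratio changed, that of S phase genes in normal macrophages by origin, whose interval held 0.

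**Figure D1:**
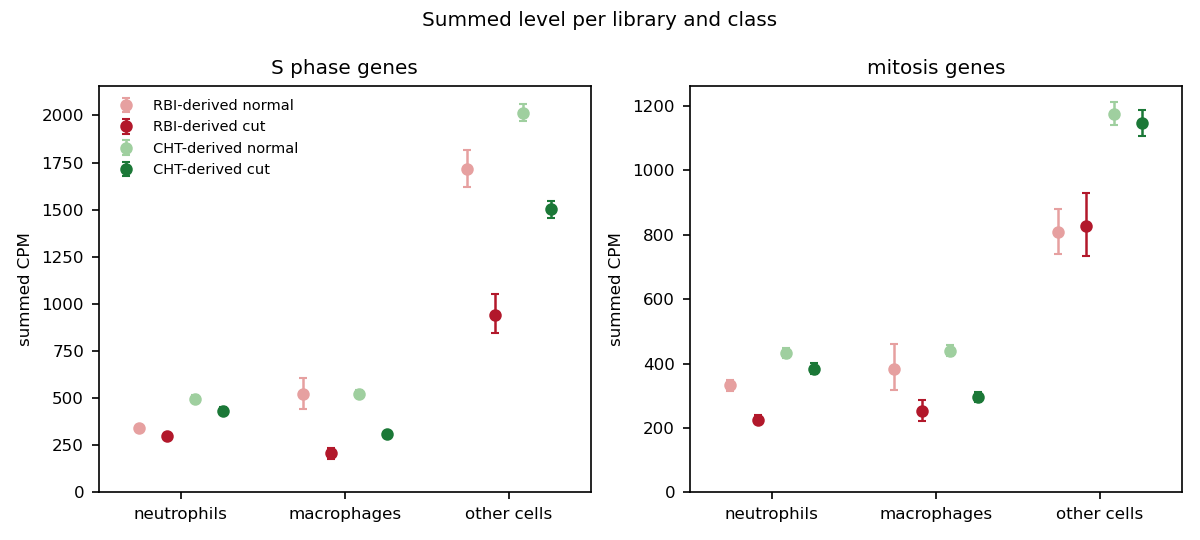
Summed CPM (y axis) of the 19 S phase genes and the 22 mitosis genes found, per class (x axis) and library (colour). Points are 1 library each and bars are exact 95% Poisson intervals. In both panels the 4 libraries of other cells lie above all neutrophil and macrophage values.

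Among the S phase genes, the replication fork genes were led by pcna, the sliding clamp, which held the most UMIs of all members (6379). In neutrophils pcna stood at 106, 90.9, 129 and 112 CPM and in macrophages at 170, 84.5, 154 and 95.2 CPM. In other cells it stood at 307, 190, 454 and 296 CPM. pcna was thus highest in other cells in 4 of 4 libraries, and macrophages were above neutrophils in the normal libraries and below them in the cut libraries. rpa2, a subunit of the complex that coats single-stranded DNA, was the S phase gene with the smallest fitted difference between macrophages and neutrophils, with 26.0, 13.4, 34.0 and 24.1 CPM in neutrophils. In macrophages rpa2 stood at 38.4, 17.3, 47.7 and 30.1 CPM, above neutrophils in 4 of 4 libraries. The remaining fork genes were less abundant. lig1, which joins the fragments of the lagging strand, stood at 7.35, 4.23, 13.4 and 11.7 CPM in neutrophils and 25.6, 4.07, 18.9 and 8.57 CPM in macrophages. fen1, which trims these fragments, was lower in macrophages than in neutrophils in 4 of 4 libraries, while rfc4, a subunit of the clamp loader, was so in 3.

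Among genes that make deoxynucleotides, rrm2, the regulated small subunit of ribonucleotide reductase, had 4181 of its 5622 UMIs in other cells. It stood at 702, 416, 599 and 536 CPM there, against 36.3, 18.5, 64.8 and 51.7 CPM in neutrophils and 41.6, 5.09, 60.4 and 36.8 CPM in macrophages. The large subunit rrm1 spread more evenly. It stood at 23.4, 17.2, 32.9 and 27.8 CPM in neutrophils, at 57.7, 12.2, 40.2 and 23.3 CPM in macrophages and at 97.2, 45.3, 117 and 80.8 CPM in other cells. tyms, thymidylate synthase, was higher in neutrophils than in macrophages in 4 of 4 libraries, with 14.1, 9.58, 19.3 and 15.2 CPM against 9.61, 5.09, 14.8 and 10.2 CPM.

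The helicase genes did not behave alike. mcm7, a subunit of the MCM ring, followed the common order, with 67.3, 39.7, 105 and 90.4 CPM in other cells against 14.3, 16.04, 22.9 and 19.8 CPM in neutrophils and 28.8, 12.2, 28.9 and 9.30 CPM in macrophages. mcm4, another subunit of the same ring, did not. It had 864 UMIs in neutrophils and 298 in other cells, and it stood at 41.7, 61.0, 34.7 and 36.5 CPM in neutrophils. In macrophages mcm4 stood at 19.2, 17.3, 21.4 and 15.3 CPM, below every neutrophil value, and in other cells at 26.9, 48.2, 50.4 and 31.6 CPM. Only the CHT-derived normal library had mcm4 highest in other cells. mcm2, which pairs with the others in the ring, stood at 9.08, 9.58, 18.8 and 14.96 CPM in neutrophils and 9.61, 4.07, 10.97 and 7.29 CPM in macrophages. cdc6, which loads the ring before S phase, had 206 of its 264 UMIs in other cells, 32 in neutrophils and 26 in macrophages. It had 0 UMIs in the macrophages of both RBI-derived libraries, where 3 UMIs would correspond to 9.61 and 3.06 CPM. gins2 and cdc45, which activate the ring, were rare in every class, with 292 and 144 UMIs in all.

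Of the mitosis genes, cdk1, the kinase that starts mitosis, was counted most (2306 UMIs). It stood at 37.4, 21.6, 56.0 and 53.4 CPM in neutrophils and at 16.02, 34.6, 62.0 and 43.8 CPM in macrophages. In other cells cdk1 stood at 59.8, 87.8, 113 and 130 CPM, above both classes in 4 of 4 libraries, as were all 22 mitosis genes. Among its cyclins, ccna2 stood at 14.7, 8.02, 23.1 and 20.4 CPM in neutrophils, at 12.8, 10.2, 17.7 and 12.6 CPM in macrophages and at 71.8, 51.0, 91.9 and 89.3 CPM in other cells. ccnb2 was rare, with 0.865, 1.11, 2.32 and 4.08 CPM in neutrophils and 0, 1.02, 1.54 and 2.73 CPM in macrophages. The partner kinases were present in all classes. aurkb, the kinase of the chromosomal passenger complex, stood at 22.7, 14.5, 25.9 and 31.3 CPM in neutrophils and 28.8, 12.2, 26.9 and 24.1 CPM in macrophages. plk1, which drives mitotic entry and exit, stood at 14.5, 8.69, 19.1 and 15.4 CPM in neutrophils and 22.4, 16.3, 24.4 and 15.7 CPM in macrophages, higher in macrophages in each library.

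Chromosome and exit genes completed the group. mki67, the Ki-67 protein that coats mitotic chromosomes, stood at 32.2, 20.5, 40.0 and 32.8 CPM in neutrophils and at 28.8, 23.4, 51.0 and 23.9 CPM in macrophages. birc5a, the zebrafish survivin of the passenger complex, stood at 36.3, 22.1, 36.5 and 28.8 CPM in neutrophils and 9.61, 18.3, 25.4 and 18.4 CPM in macrophages. Neutrophils were thus above macrophages for birc5a in 4 of 4 libraries, and their values did not all lie above those of macrophages of other libraries. ube2c, the ubiquitin-conjugating enzyme of the anaphase promoting complex, stood at 16.005, 16.7, 25.4 and 29.3 CPM in neutrophils and 32.0, 26.5, 31.7 and 23.0 CPM in macrophages. cenpf, a kinetochore protein, stood at 11.7, 9.36, 10.8 and 11.7 CPM in neutrophils and 22.4, 10.2, 17.5 and 12.9 CPM in macrophages. nusap1, a spindle protein, reached 62.8, 99.1, 90.2 and 111 CPM in other cells against at most 18.6 CPM in neutrophils. bub1, a checkpoint kinase, was the rarest member with 42 UMIs.

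**Figure D2:**
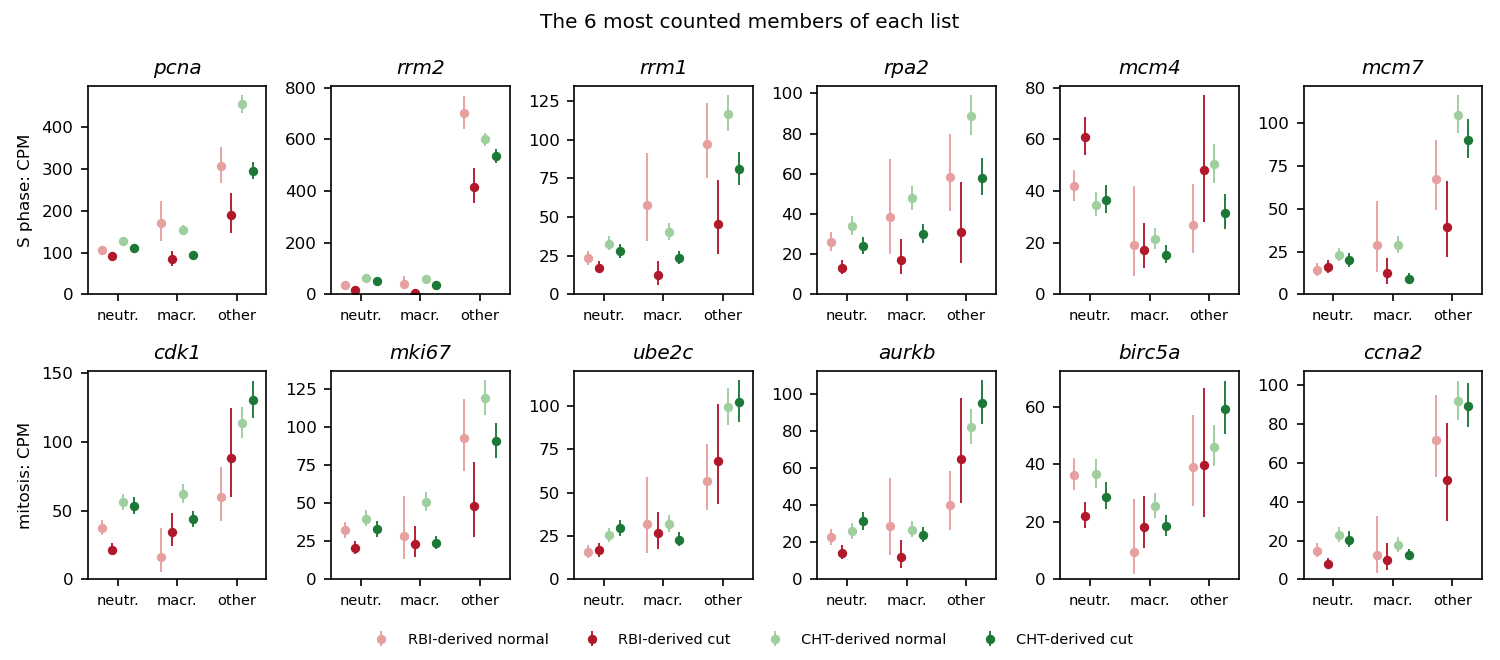
CPM (y axes) of the 6 S phase genes (top) and 6 mitosis genes (bottom) with the most UMIs, per class (x axis) and library (colour), with exact 95% Poisson intervals. Among these genes mcm4 alone has its highest value in neutrophils in any library, while rrm2 is far above the myeloid classes in other cells.

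The class differences were tested across the 4 libraries with edgeR's quasi-likelihood test on 12 sums of cells (4 libraries with 3 classes), with the library as a block, over 13196 genes. The libraries differ in treatment and are not replicates of 1 condition, so the test asks whether a class difference holds across them. Of 40 members tested, 8 were lower in macrophages than in neutrophils at an adjusted p under 0.05, and 0 were higher. Of all genes tested 15.5% were called lower and 17.9% higher, so that the 8 of 40 members lay near the background. At an unadjusted p under 0.05, 0 members were higher and 13 lower, and DESeq2 called 0 higher and 9 lower. The 4 S phase genes called were mcm4 (log2 -1.61 ± 0.23 SE, adjusted p = 9.1e-05), mcm2, fen1 and tyms (log2 from -1.24 to -0.86). The 4 mitosis genes called were birc5a (log2 -1.06 ± 0.25 SE, adjusted p = 0.0050), kif11, smc2 and ccna2 (log2 from -0.83 to -0.71). kif11 is the motor that pushes spindle poles apart and smc2 a subunit of condensin. The members with the fitted difference nearest to 0 were rpa2 (log2 0.03 ± 0.17), lig1 (log2 -0.05 ± 0.27), cenpf (log2 0.06 ± 0.24) and plk1 (log2 -0.06 ± 0.28), none of which passed the test.

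The count of members called depended on the scale on which classes were compared. The test divides counts by TMM factors, which were 0.67 to 0.83 in neutrophils, 0.94 to 0.99 in macrophages and 1.36 to 1.47 in other cells, so that it raises neutrophils over macrophages by 0.18 to 0.53 on the log2 scale against CPM. lyz alone took a median of 13.3% of the UMIs of RBI-derived normal neutrophils. With library size only, the median log2 of the members in macrophages over neutrophils moved from -0.45 to -0.08, and 3 members were called lower. Among the 8 genes, mcm4 alone was called under each of 19 alternatives.

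Against other cells both classes were lower for most members. In macrophages 34 of 40 members were lower than in other cells, 16 S phase and 18 mitosis genes, where 34.3% of all genes were lower, and 0 were higher, where 29.5% of all genes were. At an unadjusted p under 0.05, 35 were lower and 0 higher, and DESeq2 called 39 lower and 0 higher. In neutrophils 25 of 40 members were lower than in other cells, 12 S phase and 13 mitosis genes, where 38.5% of all genes were lower. A single member was higher in neutrophils, mcm4 (log2 1.05 ± 0.22 SE, edgeR adjusted p = 0.00060), where 30.3% of all genes were higher. With library size only this call was lost (log2 0.11, adjusted p = 0.65). The median log2 of the S phase genes in macrophages over other cells was -1.37 and that of the mitosis genes -0.93, against -0.10 over all genes.

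The 3 members with the largest fitted differences of macrophages from other cells were rrm2, cdc6 and nusap1. rrm2 was lower by 3.63 ± 0.35 (SE) on the log2 scale in macrophages and by 2.92 ± 0.32 in neutrophils. cdc6 was lower by 3.22 ± 0.38 and by 3.07 ± 0.34. Among the mitosis genes nusap1 was lower by 2.54 ± 0.29 and by 1.84 ± 0.25, and ccna2 by 2.00 ± 0.22 and by 1.29 ± 0.19. All 8 of these differences passed the test. rpa2, rfc4, tyms, aurka, kif23 and bub1bb passed it in neither comparison with other cells, with rpa2 at log2 -0.31 ± 0.18 in macrophages and -0.34 ± 0.17 in neutrophils.

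**Figure D3:**
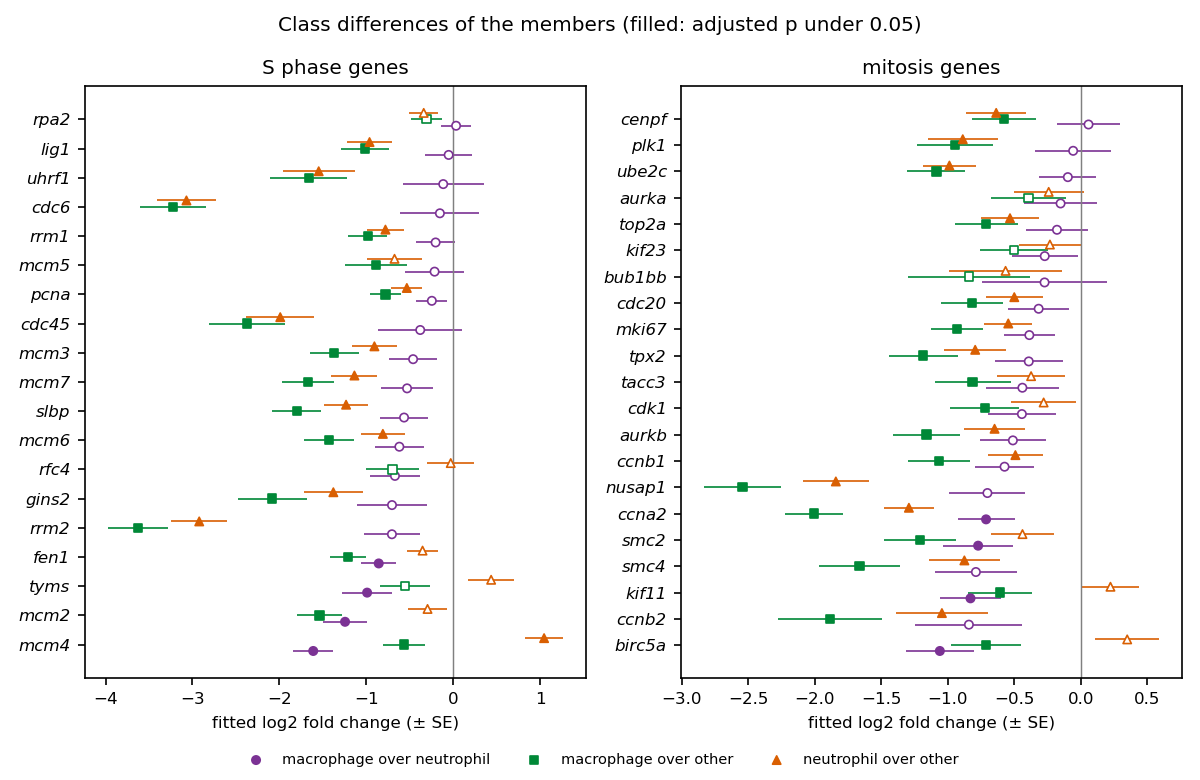
Fitted log2 fold changes (x axis, bars ± SE) of the 40 members tested (y axis) between classes over 4 libraries, in the edgeR fit with TMM factors. Filled symbols passed an adjusted p of 0.05. mcm4 is the only member with a filled symbol right of 0, and most differences from other cells lie left of 0.

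How the transcripts were spread over cells differed between the groups of genes. The 10% of neutrophils with the most mitosis UMIs held 76.2% to 90.6% of them in the 4 libraries, and in macrophages the range was 84.8% to 89.5%. For S phase genes the same share of cells held 57.3% to 62.8% in neutrophils and 45.4% to 57.6% in macrophages. Mitosis transcripts of the myeloid classes thus sat in few cells, while S phase transcripts were also found at 1 or a few UMIs in many cells. The most UMIs in 1 neutrophil were 115 for mitosis genes and 141 for S phase genes, so the groups did not differ in this way. In other cells both groups were similar, with 58.0% to 80.8% for S phase genes and 59.0% to 80.7% for mitosis genes.

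To compare cells of unlike depth, each cell was thinned to 1000 UMIs, and a cell with at least 2 UMIs of a group was called positive. Of neutrophils 5.33%, 3.80%, 9.78% and 8.62% were positive for S phase genes and 5.12%, 3.72%, 6.52% and 9.73% for mitosis genes. Of macrophages 9.09%, 3.91%, 10.2% and 5.39% were positive for S phase genes and 6.82%, 5.65%, 7.64% and 6.39% for mitosis genes. The other cells were positive more often, with 14.4%, 12.4%, 28.7% and 24.2% for S phase and 12.8%, 14.3%, 17.6% and 23.7% for mitosis genes. Without thinning 26.2%, 20.4%, 44.4% and 28.8% of neutrophils were positive for S phase genes and 12.6%, 9.85%, 21.6% and 19.5% for mitosis genes. CHT-derived neutrophils were positive more often than RBI-derived ones in normal and in cut embryos, with intervals that did not overlap for S phase genes (3.99% to 6.95% against 7.64% to 12.3% in normal, 2.80% to 5.02% against 7.07% to 10.4% in cut). The neuron-like cells described next differed by origin in the same direction for S phase genes, with 1.41% against 4.26% in normal and 0% against 8.60% in cut. The part of such background in the contrast of origins was not tested.

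Neuron-like cells, chosen by neuronal markers as cells in which division is rare, were the reference for stray UMIs, at median depths of 1354.5 to 2811 UMIs. They were positive for S phase genes in 1.41%, 0%, 4.26% and 8.60% and for mitosis genes in 0%, 2.63%, 1.60% and 14.9%. The 0 of 38 cells in RBI-derived cut and 0 of 71 in RBI-derived normal allow shares of up to 7.89% and 4.23% when 3 cells are taken as the limit. In both RBI-derived libraries the S phase shares of neutrophils lay within the exact 95% intervals of the reference, which reached 7.60% and, for 0 of 38 cells, 9.25%. In CHT-derived cut the reference was as high as the neutrophils for S phase genes and above them for mitosis genes, and it held 1113 CPM of mitosis genes against 298 CPM in CHT-derived normal. This was above the 549 CPM of the droplets, and 15 of the 221 cells were positive for both groups, so that these cells carried more mitosis transcripts than the RNA outside cells did. Whether the neuron-like cells of CHT-derived cut included dividing cells was not tested. The neutrophil and macrophage shares there lay within or below the reference intervals (5.26% to 13.1% for S phase and 10.5% to 20.3% for mitosis genes). By this reference they were thus not shown to lie above background. In CHT-derived normal the neutrophil and macrophage intervals for both groups of genes lay above the reference values but, for S phase genes, overlapped the reference interval (1.85% to 8.21%).

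After thinning, cells positive for both groups were rare in the myeloid classes. Of the 4042 neutrophils 240 were positive for S phase genes only, 228 for mitosis genes only and 25 for both. Of the 1825 macrophages the counts were 107, 106 and 16. Of the 1732 other cells they were 226, 153 and 183, so that a larger share of positive cells carried both groups. In CHT-derived normal 39.7% of S phase positive other cells were also mitosis positive, against 10.6% in neutrophils and 16.1% in macrophages. Among S phase negative cells of that library the mitosis positive shares were 8.76%, 6.08% and 6.68%. Without thinning, 7.31%, 4.28%, 14.4% and 9.04% of neutrophils had at least 2 UMIs of both groups. The shares were 18.2%, 3.91%, 14.9% and 9.99% in macrophages and 17.9%, 12.4%, 29.2% and 27.5% in other cells. The rarity of the overlap thus depended on the thinning. RNA content per cell differs between these classes, and its part in the overlap was not tested.

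**Figure D4:**
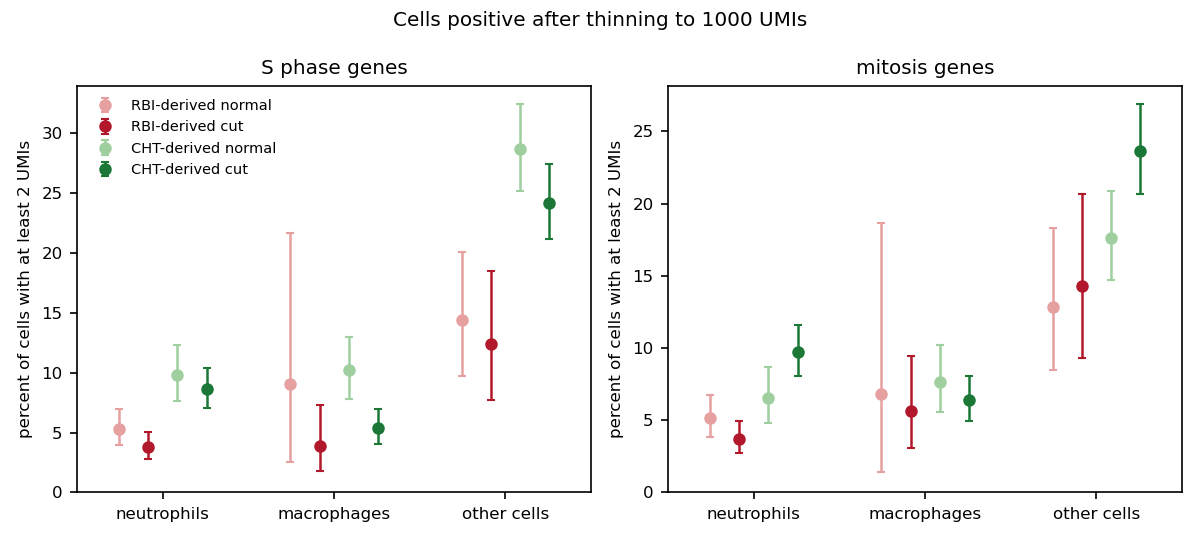
Percent of cells (y axis) with at least 2 UMIs of S phase genes (left) or mitosis genes (right) after thinning each cell to 1000 UMIs, per class (x axis) and library (colour), with exact 95% Clopper-Pearson intervals. Other cells are highest in each library, and CHT-derived neutrophils lie above RBI-derived neutrophils in both panels. The neuron-like reference, which is not drawn, was also higher in the CHT-derived libraries for S phase genes.

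Genes outside the 2 groups showed what else the positive myeloid cells carried. Here cells positive for either group were compared with the rest of their class, on CPM from all UMIs, as a description. Median depth differed between them, with 7304, 4704, 12591 and 4023 UMIs per positive neutrophil against 4677.5, 3491, 8479.5 and 4106.5 in the rest. Of 15 further mitosis genes with at least 200 UMIs in neutrophils, 15 were higher in positive cells in 4 of 4 libraries, and of 12 further replication genes 11 were, where 15.7% of 4887 genes other than the members were. aspm, a spindle pole protein, stood at 87.0, 80.4, 64.0 and 69.2 CPM in positive neutrophils against 9.02, 5.73, 8.53 and 9.47 CPM in the rest. dut, which removes dUTP, stood at 45.9, 29.6, 64.8 and 53.6 CPM against 10.3, 11.5, 16.9 and 19.9 CPM. pold1, the catalytic subunit of a replicative polymerase, was the replication gene that was higher in only 2 libraries. Of 4 blood progenitor genes with at least 200 UMIs, hmga1a, myb and cebpa were higher in positive neutrophils in 4 of 4 libraries and spi1b was lower in 4 of 4. hmga1a, a chromatin protein of progenitors, stood at 1082, 1278, 1097 and 1442 CPM in positive neutrophils against 541, 829, 651 and 960 CPM in the rest, and myb, a progenitor transcription factor, at 14.2, 14.8, 26.3 and 39.0 CPM against 5.01, 4.73, 17.5 and 21.4 CPM. The counting interval of myb held 0 in CHT-derived normal, and those of cebpa and spi1b left out 0 in only 2 libraries each.

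Neutrophil markers did not move together. Of 10 with at least 200 UMIs in neutrophils, 2 were higher in positive cells in 4 of 4 libraries, nccrp1 and lect2l, and 2 were lower in 4 of 4, mmp13a and mmp9. Both counts lay near the background, since 15.7% of all genes other than the members were higher in 4 of 4 libraries and 16.2% lower. The counting interval of nccrp1 left out 0 in only 1 library. The metalloprotease gene npsn differed by at most 0.06 on the log2 scale. mmp9, a protease of neutrophils, was lower in positive neutrophils in 4 of 4 libraries, with 4472, 6778, 2640 and 1842 CPM against 6234, 7698, 3149 and 2721 CPM. ccng1, a target of p53, was lower too, with 316, 455, 386 and 377 CPM against 433, 573, 453 and 537 CPM. The list of cell cycle brakes also holds mdm2, which removes p53 and is thus not itself a brake. Of its 13 genes with at least 200 UMIs in neutrophils, 0 were higher in positive cells in each of the 4 libraries. Lower in each were 6, mdm2 among them, where 16.2% of all genes other than the members were. In macrophages hmga1a was higher in positive cells in 4 of 4 libraries, with 1247, 1239, 1375 and 1899 CPM against 508, 704, 596 and 708 CPM. Of 3 blood progenitor genes counted in macrophages, hmga1a was the one higher in 4 of 4 libraries, where 566 of 4363 genes were. cebpa was lower in 4 of 4, with an interval that left out 0 in 3.

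The first question of the design was how the transcripts changed 3 h after transection. With 1 library per condition each pair of libraries is described without a test. In CHT-derived macrophages the summed S phase level was 308 CPM in cut against 524 CPM in normal embryos, a log2 ratio of -0.77 (-0.86 to -0.68). The mitosis level was 296 against 440 CPM, a log2 ratio of -0.57 (-0.67 to -0.48). All 16 S phase genes and all 19 mitosis genes with at least 50 UMIs in the pair were lower in cut, where 59.1% of all genes were lower and the median over all genes was -0.10. Past a 2-fold difference, counted after adding 0.5 UMIs to each sum, were 4 S phase and 3 mitosis genes, all lower, where 4.83% of all genes were lower past 2-fold and 4.07% higher. The 6 with the largest ratios were the helicase subunits mcm7 (28.9 CPM in normal and 9.30 in cut, log2 -1.63, -2.12 to -1.17) and mcm3 (22.1 and 8.02 CPM, log2 -1.46), the ligase lig1 (18.9 and 8.57 CPM, log2 -1.14), mki67 (51.0 and 23.9 CPM, log2 -1.09) and the condensin subunits smc2 (log2 -1.12) and smc4 (log2 -1.36). The smallest differences were those of kif11 (log2 -0.11, -0.57 to 0.34) and aurkb (log2 -0.16, -0.52 to 0.19), whose intervals held 0.

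The summed ratios of RBI-derived macrophages were negative too, but on few cells, and that of mitosis genes leaned on 1 cell. The 44 macrophages of normal embryos held 163 S phase UMIs and the 230 of cut embryos 203, giving 522 and 207 CPM and a log2 ratio of -1.34 (-1.64 to -1.03). Mitosis genes gave 384 and 253 CPM, a log2 ratio of -0.61 (-0.93 to -0.28), and this sign reversed to 0.36 when cells above the 99th percentile of UMIs were left out. Of the 120 mitosis UMIs in normal embryos 62 sat in 1 cell, which the counting interval does not take into account. pcna was the only member with at least 50 UMIs, at 170 CPM in normal and 84.5 in cut (log2 -1.01, -1.52 to -0.48), where 1.45% of all genes were lower past 2-fold and 5.34% higher. rrm2 had 13 UMIs in normal and 5 in cut.

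CHT-derived neutrophils differed less between cut and normal than CHT-derived macrophages. In CHT-derived neutrophils the log2 ratio was -0.20 (-0.28 to -0.12) for S phase and -0.17 (-0.26 to -0.09) for mitosis genes, with 14 of 17 and 16 of 19 members lower, where 37.5% of all genes were lower and the median was 0.14. No member passed 2-fold, where 1.70% of all genes were lower past 2-fold and 7.26% higher. slbp, which binds histone mRNA in S phase, was higher in cut, with 12.5 CPM in normal and 20.4 in cut (log2 0.71, 0.27 to 1.16), as was gins2 with 4.65 and 7.97 CPM (log2 0.78, 0.05 to 1.52). The mitosis ratio reversed when each cell counted alike (0.20) and when cells were thinned (0.36), and the S phase ratio reached 0.00 when each cell counted alike. The share of mitosis positive CHT-derived neutrophils was likewise higher in cut (9.73%, 8.09% to 11.6%) than in normal (6.52%, 4.78% to 8.65%), whereas the CPM was lower.

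In RBI-derived neutrophils mitosis genes were lower in cut, with 226 against 332 CPM and a log2 ratio of -0.56 (-0.67 to -0.44), while S phase genes differed less (log2 -0.17, -0.28 to -0.07). The mitosis positive shares after thinning had overlapping intervals, with 3.72% (2.73% to 4.93%) in cut and 5.12% (3.81% to 6.71%) in normal. The mitosis ratio was smaller in size on thinned cells and with each cell counted alike. Of 19 mitosis genes 16 were lower, against 36.8% of all genes and a median of 0.14 over all genes. smc4 was the single member past 2-fold, with 11.5 CPM in normal and 3.56 in cut (log2 -1.69, -2.59 to -0.86), where 1.32% of all genes were lower past 2-fold and 3.42% higher. cdk1 stood at 37.4 and 21.6 CPM (log2 -0.79, -1.17 to -0.42). rrm2 (log2 -0.97) and rpa2 (log2 -0.96) were lower in cut as well. mcm4 went the other way, from 41.7 to 61.0 CPM (log2 0.55, 0.28 to 0.82).

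In other cells the S phase genes were lower in cut in both origins, with log2 ratios of -0.86 (-1.04 to -0.69) in RBI-derived and -0.42 (-0.48 to -0.37) in CHT-derived cells. The summed mitosis genes were not, with log2 ratios of 0.03 (-0.18 to 0.24) and -0.04 (-0.10 to 0.03). Groups within the CHT-derived other cells went opposite ways for mitosis genes. Blood progenitor-like cells stood at 1850 CPM in normal and 1215 in cut, and epidermis-like cells at 793 and 579. Neuron-like cells stood at 298 and 1113 CPM, and neural progenitor-like cells at 1106 and 1655. The single member past 2-fold was rrm1 (log2 -1.10) in RBI-derived cells, where 10.8% of all genes were lower past 2-fold, and smc2 (log2 -1.01) in CHT-derived cells, where 5.10% were and 2.95% were higher. With at least 50 UMIs were 6 S phase and 6 mitosis genes in RBI-derived cells, and 19 and 20 in CHT-derived cells. The other cells are a mixture whose makeup can differ between libraries, and its part in the ratios was not tested.

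**Figure D5:**
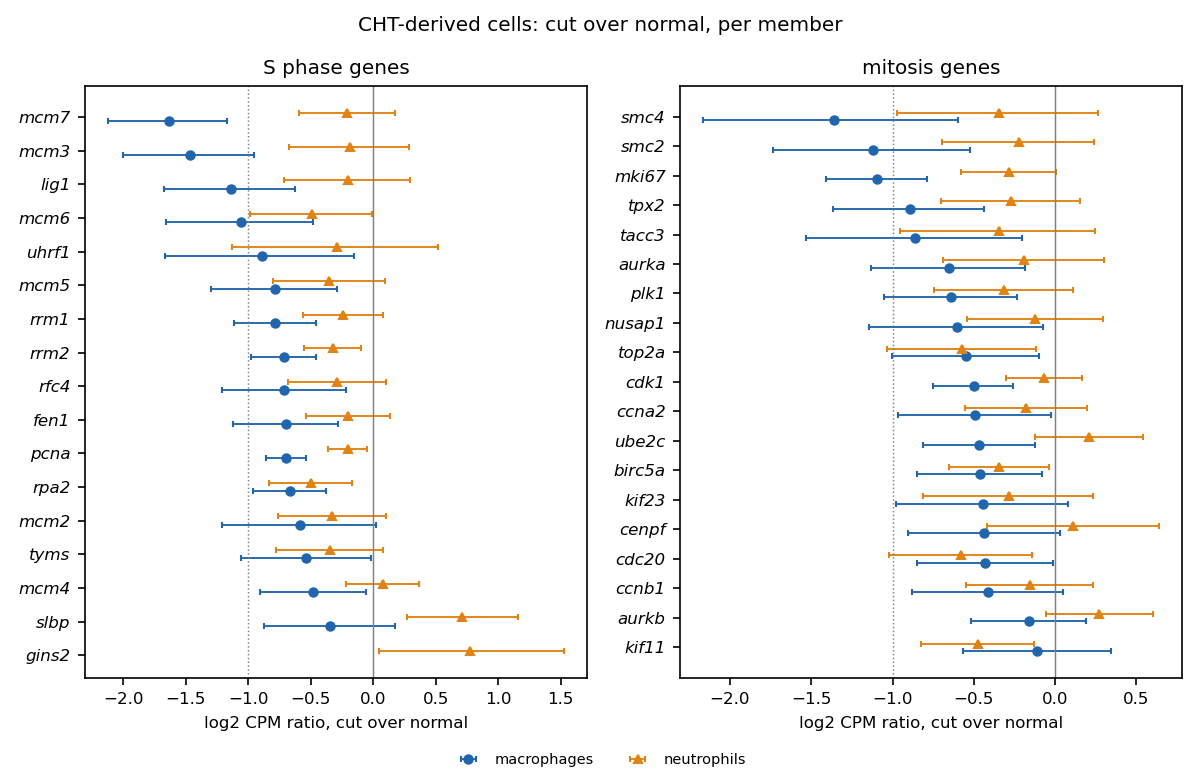
Log2 CPM ratios of cut over normal (x axis) for CHT-derived macrophages (circles) and neutrophils (triangles), per member with at least 50 UMIs in the pair of libraries (y axis), with exact 95% counting intervals. The dotted line marks a 2-fold lower level. All macrophage points lie left of 0, whereas neutrophil points lie nearer to 0.

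The second question was whether the origins differed. In neutrophils of normal embryos the RBI-derived library had 339 CPM of S phase genes against 497 CPM in the CHT-derived one, a log2 ratio of -0.55 (-0.64 to -0.46), and 332 against 433 CPM of mitosis genes, a log2 ratio of -0.38 (-0.47 to -0.29). Of 15 S phase and 19 mitosis genes with at least 50 UMIs, 14 and 16 were lower in RBI-derived neutrophils, where 58.9% of all genes were lower. Past 2-fold were mcm6 (4.11 against 16.1 CPM, log2 -1.97, -2.76 to -1.25), mcm5 (6.92 against 17.6 CPM, log2 -1.35), fen1 (14.3 against 29.7 CPM, log2 -1.06), mcm2 (9.08 against 18.8 CPM, log2 -1.05) and nusap1 (8.87 against 18.6 CPM, log2 -1.07). Of all genes 3.30% were lower past 2-fold and 1.75% higher. mcm4 was again the exception among helicase genes, at 41.7 against 34.7 CPM.

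In neutrophils of cut embryos RBI-derived cells stood below CHT-derived ones, with a log2 ratio of -0.52 (-0.62 to -0.42) for S phase and -0.76 (-0.87 to -0.65) for mitosis genes. Of 15 S phase genes 14, and of 19 mitosis genes 19, were lower in RBI-derived cells, where 56.7% of all genes were. Past 2-fold were 4 S phase and 5 mitosis genes, all lower, where 7.60% of all genes were lower past 2-fold and 1.80% higher. The 6 with the largest ratios were fen1 (8.02 against 25.8 CPM, log2 -1.69), rrm2 (18.5 against 51.7 CPM, log2 -1.48), lig1 (4.23 against 11.7 CPM, log2 -1.46), ccna2 (8.02 against 20.4 CPM, log2 -1.35), cdk1 (21.6 against 53.4 CPM, log2 -1.31) and cdc20 (6.24 against 13.8 CPM, log2 -1.15), the activator of the anaphase promoting complex. The CHT-derived cut library also held 195 neutrophils with at least 3 macrophage UMIs, against 6 in RBI-derived cut, and the ratios without them stayed within the counting intervals.

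Macrophages of normal embryos gave log2 ratios of -0.01 (-0.24 to 0.22) for S phase and -0.20 (-0.47 to 0.07) for mitosis genes in RBI-derived over CHT-derived cells, on 44 and 550 cells. Past 2-fold, with 0.5 UMIs added, were 2 members lower, where 9.68% of all genes were, and 1 higher, where 2.44% were. The 2 lower were of 19 mitosis genes and the 1 higher of 15 S phase genes with at least 50 UMIs. In cut embryos the log2 ratios were -0.57 (-0.79 to -0.36) and -0.23 (-0.43 to -0.03). rrm2 stood at 5.09 against 36.8 CPM (log2 -2.85, -4.49 to -1.61) and was 1 of 3 members lower past 2-fold, where 3.84% of all genes were, while 0 members were higher, where 1.49% were. The 3 were 2 of 13 S phase genes and 1 of 16 mitosis genes. In other cells the log2 ratios were -0.23 and -0.54 for S phase and mitosis genes in normal embryos and -0.67 and -0.47 in cut embryos. Past 2-fold were 3 members in normal and 8 in cut embryos, all lower, where 9.17% and 11.7% of all genes were. In normal embryos they were 1 of 19 S phase and 2 of 19 mitosis genes, and in cut embryos 8 of 18 and 0 of 19. The cut and normal comparisons share libraries with the comparisons of origin and are not independent of them.

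A fit added after the data were seen asked which of these differences held across the other factor. Within each class the 4 libraries were fitted together with edgeR, cut over normal blocked by origin and origin blocked by cut, which leaves 1 residual degree of freedom. In macrophages 12 of 35 members were lower in cut at an adjusted p under 0.05 and 0 were higher, where 5.26% of all genes were lower and 8.09% higher. They included pcna, rrm1, rrm2, mcm3, mcm7, lig1 and mki67. In RBI-derived normal macrophages mcm3 had 3 UMIs, lig1 8, mcm7 and mki67 9 each, rrm2 13 and rrm1 18. Only pcna had at least 50 UMIs in the RBI-derived pair. How far these calls hold in RBI-derived macrophages was thus not tested. In neutrophils 7 of 36 members were lower in cut, among them rrm2, rpa2, birc5a, kif11 and mki67, and 0 were higher, where 6.79% of all genes were lower and 6.81% higher. By origin, 12 of 36 members were lower in RBI-derived neutrophils, among them fen1, lig1, mcm2, mcm5, mcm6, cdk1 and ccna2, where 8.07% of all genes were lower. mcm4 was the 1 member higher there, where 9.08% of all genes were. In macrophages rrm2 was the 1 member called lower by origin, where 1.39% of all genes were lower, and 0 were higher, where 0.817% were. In other cells 0 members were called with edgeR in either comparison, as were 0 of all genes, and at an unadjusted p under 0.05 1 member was lower in cut and 5 were lower in RBI-derived cells. The libraries of a condition are not replicates, so these p-values rest on the 2 origins or the 2 states varying alike. The fit used sums of all UMIs and was not repeated on thinned cells or with each cell counted alike. Under those settings the summed mitosis ratio of cut over normal reversed in CHT-derived neutrophils. Their mitosis positive share after thinning was 6.52% in normal and 9.73% in cut.

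Further genes of the same processes gave the wider setting. Of 41 other replication genes tested, 12 were lower and 1 higher in macrophages than in neutrophils with edgeR, and of 40 other mitosis genes 8 were lower and 0 higher, where 15.5% of all genes were lower and 17.9% higher. dut was the gene that was higher (log2 0.93 ± 0.17 SE, adjusted p = 0.00070). The largest falls were those of ncaph, a condensin subunit (log2 -2.55 ± 0.30), and pold1 (log2 -2.32 ± 0.33). In macrophages over other cells 31 of 41 and 27 of 40 were lower, where 34.3% of all genes were, and 0 were higher. In neutrophils over other cells 19 and 13 were lower, where 38.5% of all genes were, and 2 and 3 higher, among them pold1 (log2 1.13 ± 0.30) and ncaph (log2 0.85 ± 0.25). In CHT-derived macrophages 21 of 21 other replication genes and 26 of 28 other mitosis genes with at least 50 UMIs were lower in cut than in normal embryos, where 59.1% of all genes were.

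For genes that start or hold back the cycle the counts lay near the background of 17.9% higher and 15.5% lower. The list of G1 cyclins and kinases also holds regulators of transcription such as myca, e2f8 and rb1. Of its 15 genes tested, 3 were higher in macrophages than in neutrophils, myca (log2 1.98 ± 0.32 SE), the repressor e2f8 (log2 1.40 ± 0.27) and cyclin D1, ccnd1 (log2 0.93 ± 0.24). Lower was 1, cdk4 (log2 -1.72 ± 0.59). Of 20 genes tested from the list of brakes 4 were higher in macrophages, among them the kinase inhibitors cdkn1cb (log2 2.99 ± 0.63) and cdkn1a (log2 2.07 ± 0.60). Lower were 2, gadd45ab (log2 -1.65 ± 0.35) and mdm2 (log2 -1.09 ± 0.18). mdm2 is the ligase that removes p53, so it is listed with the brakes but is not itself one. Between libraries the summed CPM of the brakes was higher in cut in neutrophils, with log2 ratios of 0.35 (0.31 to 0.40) in RBI-derived and 0.22 (0.17 to 0.26) in CHT-derived cells. The median over all genes was 0.14 in both pairs. TMM factors of neutrophils were 0.67 in normal and 0.73 in cut for RBI-derived cells, and 0.71 and 0.83 for CHT-derived cells. Factors that are higher in cut lower a ratio of cut over normal on the TMM scale. The brakes were not computed on that scale, so their higher level in cut is shown for CPM only. In CHT-derived macrophages the summed brakes were lower in cut (log2 -0.16, -0.20 to -0.13), where the median over all genes was -0.10.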

How the data were processed

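Single cells of 4 sorted pools were sequenced with 10x Genomics 3′ chemistry, and each deposited matrix holds whole-number UMI counts per gene and cell, with no normalization by the authors. The counts were made with Cell Ranger 7.1.0 according to the matrix headers, and the submitters' processing notes name GRCz11 and Seurat. Labels with RE were read as red, RBI-derived cells and labels with GR as green, CHT-derived cells. The 4 entries of a group share 1 matrix and were counted as 1 library.

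Cells with at least 1000 UMIs, 300 to 7500 genes and at most 10% mitochondrial UMIs were kept. Classes were set by lyz (at least 1% of UMIs) and by at least 3 UMIs of mfap4, mpeg1.1, marco, fgl2a, lgals3bpb and c1qb. No doublet caller was run, and cells with markers of both classes and cells above the 99th percentile of UMIs were left out as alternatives. Of the kept barcodes 25 occurred in more than 1 library. CPM came with exact Poisson intervals, ratios with conditional binomial intervals and shares with Clopper-Pearson intervals, all at 95% and for counting error only. Class sums were tested in edgeR 4.0.16 (R 4.3.3, limma 3.58.1) with TMM factors, a library block and Benjamini-Hochberg adjustment, for genes with at least 50 UMIs. DESeq2 1.42.0 was an alternative. Library comparisons were also fitted within each class over all 4 libraries, an addition made after the data were seen. The library block pairs the classes because all classes of a library come from 1 pool of embryos and 1 capture. Tested on simulated data for macrophages against neutrophils, the fit recovered 31% of 2-fold and 82% of 4-fold changes. Between libraries, 2-fold differences were counted with 0.5 UMIs added to each sum, for genes with at least 50 UMIs. Python 3.11.15 was used for all other steps.

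Values are given per library for the 6 members of each group with the most UMIs and for those with the highest and lowest fitted ratio of macrophages over neutrophils, and between libraries for up to 6 members past 2-fold. Further members and genes were named after their values were seen. The members and lists were chosen with earlier results of these data known.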

Additional observations from a re-analysis of the deposited data

Results flagged for a closer look

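Droplets with 10 to 100 UMIs hold no kept cell and served only to describe RNA outside cells and to subtract it. They carried transcripts of the division genes above the limit that a count of 0 allows. The S phase genes stood there at 423 CPM in RBI-derived normal, 376 CPM in RBI-derived cut, 919 CPM in CHT-derived normal and 655 CPM in CHT-derived cut. The mitosis genes stood at 259, 218, 597 and 549 CPM in the same order.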

How the results depend on the processing

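Of 114 counts of members called under other settings, 104 stayed at 0 where the reported count was 0, or within 1.5 times the reported count otherwise. Counts of members higher in macrophages than in another class were 0 in the reported fit, and such counts raise the 104. Most counts that moved were those for macrophages below neutrophils. For macrophages below neutrophils (8 members) the count was 3 with library size only, 3 with no replicate block, 15 with only the 2 classes compared, 13 with lyz at 0.5% and 2 after thinning. For neutrophils below other cells (25) it was 38 with library size only and 15 with only the 2 classes compared, and for neutrophils above other cells (1) it was 0 with library size only and 3 with no filter on low counts. Leaving out each library in turn gave 3 to 12, 28 to 34 and 21 to 25 members for macrophages below neutrophils, macrophages below other cells and neutrophils below other cells, the 3 without CHT-derived normal. Under every alternative that tested them, 1 of 8, 22 of 34 and 14 of 26 calls were kept. The replicate block is the library.

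Of 192 log2 ratios of summed CPM under other settings 165 moved by less than the counting interval, 23 moved by more and 4 reversed. With TMM factors the S phase ratios in neutrophils were -0.31 (cut over normal, RBI-derived), -0.42 (CHT-derived), -0.45 (RBI-derived over CHT-derived, normal) and -0.34 (cut), and the mitosis ratios -0.69, -0.39, -0.28 and -0.58. After thinning, S phase ratios in neutrophils were -0.025 (cut over normal, CHT-derived) and -0.81 (origin, cut). Mitosis ratios after thinning were -0.29 (RBI-derived) and 0.36 (CHT-derived, reversed) for cut over normal in neutrophils, -0.40 in CHT-derived macrophages, and -0.54 (normal) and -1.19 (cut) for origin in neutrophils. With each cell counted alike, S phase ratios in neutrophils were 0.0030 (cut over normal, CHT-derived, reversed) and -0.70 (origin, cut). The mitosis ratios were then -0.41 (RBI-derived neutrophils), 0.20 (CHT-derived neutrophils, reversed), -0.45 (CHT-derived macrophages) and -1.03 (origin in neutrophils, cut). Without cells above the 99th percentile of UMIs the mitosis ratios were 0.36 (cut over normal, RBI-derived macrophages, reversed), -0.27 (CHT-derived neutrophils) and -1.08 (origin in macrophages, normal). With lyz at 2% the S phase ratios in neutrophils were -0.10 (cut over normal, CHT-derived) and -0.45 (origin, normal), and with at least 6 macrophage UMIs that of CHT-derived macrophages was -0.87. The causes were not tested. The thinned shares could not be run with cells of at least 500 UMIs.

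Of 160 shares 116, and of 288 summed levels 207, moved by less than their intervals. With 1 library per condition, differences between conditions and between captures cannot be told apart, and RBI-derived macrophages of normal embryos rest on 44 cells.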

Other observations

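Blood progenitor-like cells, a group of the other cells, were positive for S phase genes in 33.3%, 15.2%, 50.3% and 35.7% of cells and for mitosis genes in 19.4%, 23.9%, 36.7% and 28.6%, ordered as normal and then cut for RBI-derived cells, followed by normal and cut for CHT-derived cells. They numbered 36, 46, 177 and 224 cells. The blood progenitor genes include hmga1a, which was higher in positive neutrophils and macrophages, and its part in these shares was not tested. Neuron-like cells of CHT-derived cut held 512 mitosis UMIs in 221 cells, and 33 of these cells were mitosis positive, against 3 of 188 in CHT-derived normal.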
